A study of Mus musculus with 12 samples.

Results

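A group of 10 genes was described across MSCs and osteocytes that had been treated with vehicle or with FG-4592: A2m, Adm2, Ak4, 2610528A11Rik, Gpr35, AU021092, C2cd4c, Itm2a, Megf6 and Dpp6. They are 10 of the 56350 genes counted, chosen by their read counts, which rose steeply with FG-4592 in either or both cell states. The rule named the genes and set no numeric cutoff. Their responses are therefore given as a description, without a test. Each condition held 3 RNAseq libraries. All came from MPC2, a conditionally immortalized mesenchymal progenitor line of mouse that is 1 clone. The MSCs were MPC2 cells kept undifferentiated at 33 °C, and the osteocytes were MPC2 cells after 3 weeks of differentiation at 37 °C in osteogenic media, so temperature, media and time in culture cannot be told apart from cell state. Either cell state received vehicle or 50 µmol/L FG-4592 for 48 hours. No label says that the libraries of a condition came from separate cultures, so the spread between them may be technical.

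FG-4592 inhibits the prolyl hydroxylases that, when oxygen and iron are available, mark the alpha subunits of the hypoxia-inducible factors (HIFs) for destruction. With the enzymes blocked, the alpha subunits accumulate, pair with HIF1β and bind short DNA elements near target genes, which include glucose transporters, glycolytic enzymes and angiogenic peptides. Among the 10 genes, Ak4 is a known HIF1 target, and the authors describe Gpr35 as associated with HIF1. Others are better known from other settings: A2m as a protease inhibitor of blood plasma, Adm2 as a vasoactive peptide, and Dpp6 as a subunit of neuronal potassium channels.

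The letters that HIFs recognise, ACGTG or GCGTG on either strand, were searched in the RefSeq promoter windows (GRCm38.p6) of 250 bases before to 50 bases after each start site. Windows were matched for 8 of the 10 genes, 15 in all. A2m and AU021092 had no entry. At least 1 core was present in a window of Ak4, 2610528A11Rik, Gpr35, Megf6 and Dpp6, and none was present in the windows of Adm2, C2cd4c and Itm2a. Among all 32851 promoter windows, 19.6% held ACGTG, 32.4% held GCGTG and 43.8% held either, so the presence of a core is common. These shares are per window, whereas Ak4 had 4 windows, Dpp6 had 3, and Gpr35 and C2cd4c had 2 each. The number of genes with a core can therefore not be set against them. The stretches that hold the upstream cores are given 5′ to 3′ in the direction of the gene, from 200 to 13 bases before the start site, with the cores in capitals (CACGC being the reverse complement of GCGTG), to show how the letters sit in each gene.
Ak4, chr4:101419089-101419276, plus strand: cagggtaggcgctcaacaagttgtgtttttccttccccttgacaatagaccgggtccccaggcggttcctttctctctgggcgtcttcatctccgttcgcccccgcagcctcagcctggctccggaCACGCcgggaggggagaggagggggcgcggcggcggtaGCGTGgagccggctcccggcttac
2610528A11Rik, chr14:37110114-37110301, minus strand: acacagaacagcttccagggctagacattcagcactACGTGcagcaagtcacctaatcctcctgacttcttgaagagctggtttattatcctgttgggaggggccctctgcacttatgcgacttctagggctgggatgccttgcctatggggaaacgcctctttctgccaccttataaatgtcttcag
Gpr35, chr1:92978703-92978890, plus strand: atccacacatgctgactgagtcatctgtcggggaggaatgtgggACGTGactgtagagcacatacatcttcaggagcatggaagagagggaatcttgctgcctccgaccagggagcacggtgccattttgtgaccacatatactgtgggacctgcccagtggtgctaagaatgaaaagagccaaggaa
Megf6, chr4:154170513-154170700, plus strand: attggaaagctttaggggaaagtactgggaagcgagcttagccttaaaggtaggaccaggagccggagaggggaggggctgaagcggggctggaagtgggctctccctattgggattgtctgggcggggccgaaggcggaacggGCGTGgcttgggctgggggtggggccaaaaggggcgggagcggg
Dpp6, chr5:26817157-26817344, plus strand: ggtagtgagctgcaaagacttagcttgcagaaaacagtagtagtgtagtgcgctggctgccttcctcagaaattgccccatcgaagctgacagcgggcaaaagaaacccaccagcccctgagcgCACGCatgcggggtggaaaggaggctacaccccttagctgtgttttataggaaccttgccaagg

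Ak4 has 4 RefSeq start sites, and the window of its most downstream start holds the palindrome CACGTG, which contains ACGTG on both strands and was counted as a single core. The 30 bases around it lie in an untranslated exon of Ak4 (Gencode M21).
Ak4, chr4:101419477-101419506, plus strand: tcccactctgccCACGTGcggggaccggca

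The cores in these stretches lay 164 bases before the start of 2610528A11Rik, 156 before the second start of Gpr35, 56 before that of Megf6, 76 before the first start of Dpp6, and 74 and 36 before the first start of Ak4. Further cores lay 6 bases before the first start of Dpp6, and after the starts of 2610528A11Rik (29 bases), Megf6 (22 bases), Ak4 (45 bases after its most downstream start) and Dpp6 (32 bases after its most downstream start). ACGTG was held by Ak4, 2610528A11Rik and Gpr35, and GCGTG by Ak4, 2610528A11Rik, Megf6 and Dpp6. These starts are those of RefSeq and can lie inside the span counted for a gene. The windows of 2610528A11Rik and Gpr35 lie wholly inside their spans. Those spans begin at 37114022 (minus strand) and at 92950865 (plus strand), and these annotated starts were not searched. The printed core of Dpp6 lies after the start of its span at 26817203. A match of 5 letters is a description of the sequence and no measure of binding.

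**Figure D1:**
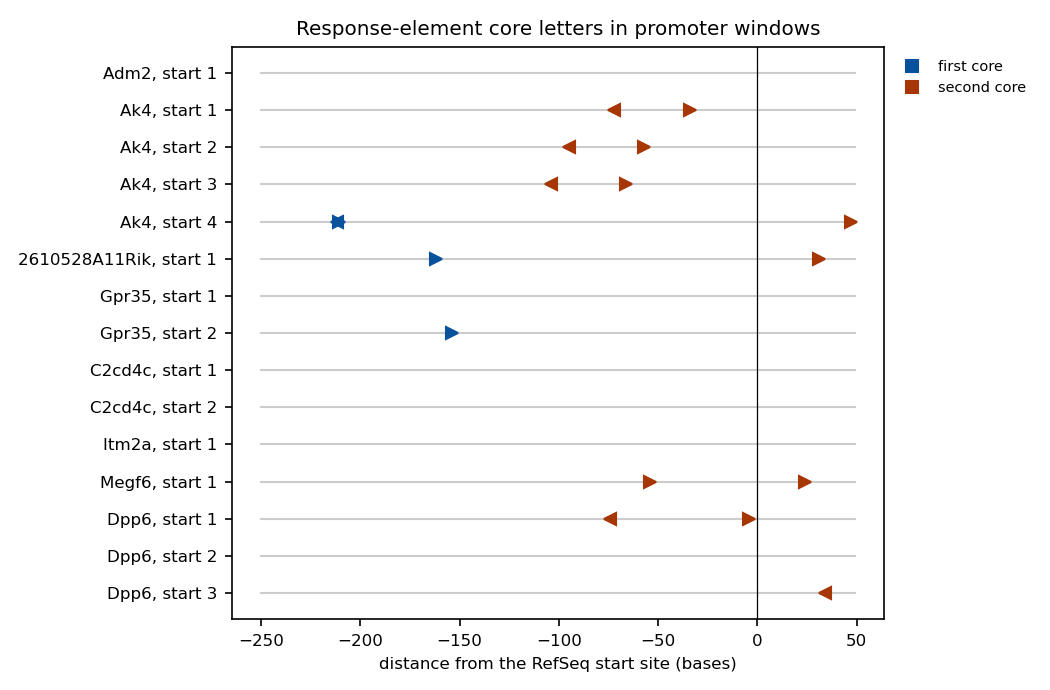
Positions of the HIF core letters in the 15 RefSeq promoter windows of 8 genes. The x axis is the distance from the start site in bases, each grey line is a window, blue is the core that begins with A, red is the core that begins with G, and the arrow points along its strand. Ak4, 2610528A11Rik, Gpr35, Megf6 and Dpp6 have cores, and the windows of Adm2, C2cd4c and Itm2a are empty.

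Library totals ran from 52829185 to 68108470 counts, and 3 counts, the approximate 95% upper limit for a count of 0 (counting error only), corresponded to 0.0447 to 0.0545 CPM (counts scaled to the normalised library size). Of the 5 genes read as a check of the treatment, Slc2a1, Pdk1 and Bnip3 rose in both cell states, with log2 fold changes of 3.36, 4.87 and 4.31 in MSCs and 3.50, 4.01 and 3.73 in osteocytes (largest adjusted p of these 6 rises 6.21e-15, edgeR quasi-likelihood test). Egln3 and Car9 had 44 and 16 summed counts in vehicle-treated osteocytes and 2899 and 630 in FG-4592-treated ones, but only 1 and 10 counts in all FG-4592-treated MSC libraries. Of these vehicle counts, 33 of the 44 of Egln3 and all 16 of Car9 were in osteocyte vehicle replicate 1, without which the fitted log2 fold changes of 6.03 and 5.27 became 7.33 and 10.69. The osteocyte markers Dmp1 and Phex averaged 11.2 and 57.6 CPM in vehicle-treated osteocytes and 1.19 and 0.977 CPM in vehicle-treated MSCs, and 2.06 and 2.83 CPM in FG-4592-treated osteocytes, whereas Sost had no count in any library and Mepe and Pdpn had at most 2. Fgf23, the last of these 6 osteocyte markers, differed from Dmp1 and Phex, with 9 and 10 summed counts in vehicle- and FG-4592-treated MSCs and 5 and 302 in vehicle- and FG-4592-treated osteocytes. The summed level of 5 adipocyte markers ran from 1590 to 2190 CPM in the osteocyte libraries and from 65.3 to 85.9 CPM in the MSC libraries, with Lep at or near 0. Most of the MSC sum was Pparg, at 73.9 and 64.1 CPM in vehicle and FG-4592, against 122 and 113 CPM in osteocytes. Most of the osteocyte sum was Adipoq, at 1470 and 1370 CPM, against 7.77 and 2.86 CPM in MSCs. Col2a1 averaged 62.7 CPM in vehicle and 294 CPM in FG-4592 in osteocytes while Acan, Col9a1 and Matn1 were at or near 0. The other cartilage marker, Sox9, averaged 84.2 and 154 CPM in vehicle- and FG-4592-treated MSCs and 51.7 and 119 CPM in the osteocytes. Of 5 osteoblast markers, Ibsp and Alpl averaged 35.6 and 61 CPM in vehicle-treated osteocytes against 59.6 and 76.6 CPM in vehicle-treated MSCs. Bglap and Sp7 were higher in the osteocytes, at 4.57 and 90.5 CPM against 0.232 and 66.5 CPM. Col1a1 was at 2750 and 2800 CPM in vehicle-treated osteocytes and MSCs. The 5 blood cell markers summed to at most 0.147 CPM in any library. The part that adipocyte-like or other cells of the osteocyte cultures have in the levels below was not tested, and in such bulk samples fewer cells of a type and less RNA per cell cannot be told apart.

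All 10 genes passed the filter on low counts (more than 10 counts in at least 3 libraries) and shared no exonic base with another gene, so that counting a read pair for every gene it overlaps did not add reads of a second annotated exon to them. Ak4 has a stretch of 672 bases of at least 95% identity in the pseudogene Ak3l2-ps, which held at most 18 counts in a library, and Gpr35 has 120 such bases in Hmmr, which held 517 to 3498 counts in a library. The part that these shared stretches have in the counts was not tested. The other 8 had none of 100 bases or more. In osteocytes every FG-4592 library lay above every vehicle library for all 10 genes, which also held for 26.1% of the 16484 genes tested. In MSCs this was so for 7 of the 10, all but C2cd4c, Itm2a and Megf6, and for 23.2% of all genes tested. Since the genes were chosen for these rises, nothing is read from the counts.

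**Figure D2:**
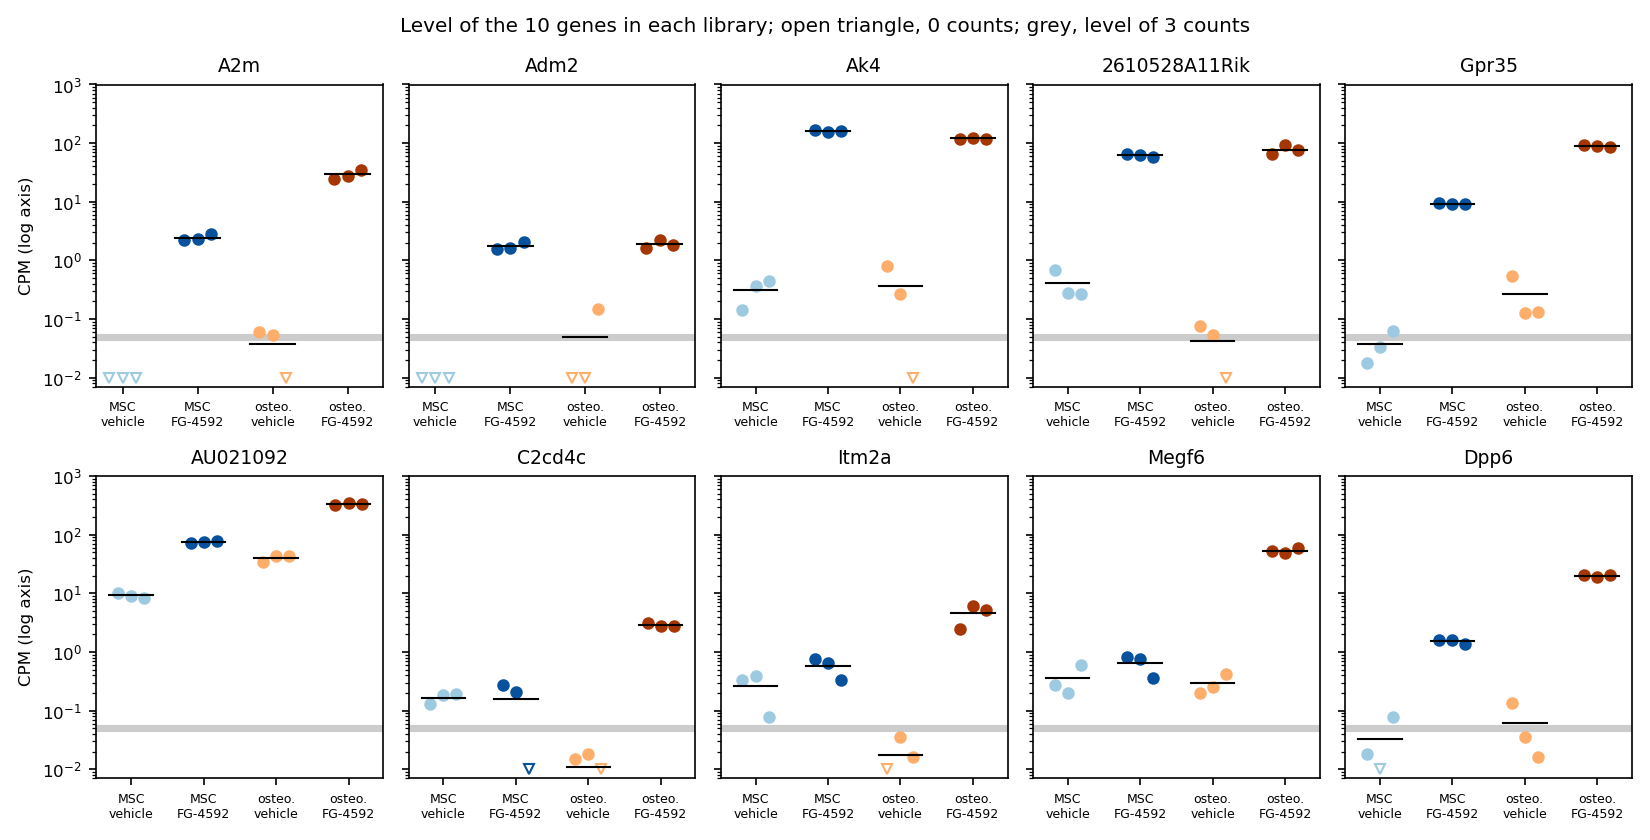
Level of each gene in each of the 12 libraries, in CPM on a log axis, with the mean of each condition as a bar, libraries at 0 counts as open triangles and the level of 3 counts as a grey band. FG-4592 libraries lie above vehicle libraries in every panel for osteocytes, and in 7 of 10 panels for MSCs.

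Of the 3 secreted proteins, A2m (chr6:121635376-121679227, plus strand, mm10) encodes alpha-2-macroglobulin, which traps proteases. It had 0, 0 and 0 counts in the vehicle-treated MSC libraries and 133, 153 and 183 in the FG-4592-treated ones. In osteocytes it had 4, 3 and 0 counts in vehicle and 1607, 1716 and 2121 in FG-4592. Vehicle libraries of both cell states were thus at or near the floor, while treated osteocytes lay above treated MSCs without overlap. A2m was at least 48.8-fold higher with FG-4592 in MSCs, taking 3 counts in each vehicle library as the floor. In osteocytes it was 765-fold higher (95% interval 371 to 1900, exact binomial on the summed counts, counting error only). All intervals of ratios below are of this kind and leave out the spread between libraries. Between the treated cells A2m was 11.9-fold higher in osteocytes (interval 10.8 to 13.1). Because MSCs in vehicle had no read, the difference between the responses of the 2 cell states has no measured size.

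Adm2, on chr15:89322720-89324731 (plus strand), encodes adrenomedullin 2, or intermedin, a peptide of the calcitonin family that relaxes vessels. Its counts were 0, 0 and 0 in vehicle and 94, 110 and 130 in FG-4592 in MSCs. In osteocytes they were 0, 0 and 9 in vehicle and 107, 139 and 110 in FG-4592. Treated MSCs and treated osteocytes overlapped, with means of 1.75 ± 0.245 and 1.91 ± 0.324 CPM (SD, n = 3), a ratio of 1.09 (interval 0.935 to 1.27). The rise was at least 34.7-fold in MSCs and 38.9-fold (interval 20.3 to 85.7) in osteocytes, the latter resting on the 9 counts of vehicle replicate 3, without which vehicle-treated osteocytes had no read of Adm2. When that library was left out, the fitted osteocyte log2 fold change of 5.23 became 9.88. The fitted difference between the responses, -4.53 on the log2 scale, then became 0.13.

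2610528A11Rik, on chr14:37102140-37114022 (minus strand), is the mouse counterpart of the gene for the ligand of GPR15, a small secreted peptide known from epithelia. Counts were 38, 17 and 17 in vehicle and 3846, 4139 and 3786 in FG-4592 in MSCs, and 5, 3 and 0 in vehicle and 4183, 5702 and 4589 in FG-4592 in osteocytes. Vehicle libraries of MSCs lay above those of osteocytes, and the treated libraries of the cell states overlapped. The rise was 153-fold (interval 121 to 196) in MSCs and 1780-fold (interval 902 to 4120) in osteocytes, with a fitted log2 fold change of 10.74 ± 0.81 (SE). The difference between the responses, 3.49 ± 0.86, thus went with a difference in the vehicle level, 0.108 times as high in osteocytes (interval 0.045 to 0.225). It also went with a ratio of 1.26 (interval 1.23 to 1.29, counting error only) between the treated levels. The fitted log2 value of this last ratio was 0.33 ± 0.14 (SE). Without osteocyte vehicle replicate 1 the osteocyte log2 fold change was 11.44 and the difference 4.16, and without MSC vehicle replicate 1 the difference was 2.89. The fitted log2 ratio of the vehicle levels, -3.16, was -3.84 and -2.58 without the same libraries.

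Of the receptor, the channel partner and the other membrane or EGF-repeat proteins, Gpr35 (chr1:92950865-92986391, plus strand) encodes a G protein-coupled receptor for which kynurenic acid is a proposed ligand. Its counts in MSCs were 1, 2 and 4 in vehicle and 574, 625 and 581 in FG-4592. In osteocytes they were 36, 7 and 8 in vehicle and 5952, 5470 and 5283 in FG-4592. All 4 conditions were separated, in the order treated osteocytes, treated MSCs, vehicle-treated osteocytes and vehicle-treated MSCs. The rise was 238-fold (interval 115 to 593) in MSCs and 322-fold (interval 245 to 433) in osteocytes. Osteocytes had more Gpr35 than MSCs in vehicle, by 7.09-fold (interval 3.20 to 18.5), and in FG-4592, by 9.59-fold (interval 9.13 to 10.1). The fitted difference between the responses was 0.50 ± 0.82, and it ran from -0.10 without MSC vehicle replicate 3 to 1.56 without osteocyte vehicle replicate 1, the library with 36 counts. The fitted log2 ratio of osteocytes to MSCs in vehicle, 2.76, was 1.70 without that library and 3.35 without MSC vehicle replicate 3. The osteocyte log2 fold change, 8.33, was 9.41 without osteocyte vehicle replicate 1.

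Dpp6, on chr5:26817203-27727505 (plus strand), encodes a relative of the dipeptidyl peptidases that lacks enzyme activity and joins Kv4 potassium channels. MSC libraries held 1, 0 and 5 counts in vehicle and 97, 107 and 89 in FG-4592. Osteocyte libraries held 9, 2 and 1 in vehicle and 1322, 1159 and 1229 in FG-4592. Vehicle libraries of the cell states overlapped near the floor, and treated osteocytes lay above treated MSCs. The rise was 45.7-fold (interval 20.8 to 126) in MSCs and 304-fold (interval 174 to 589) in osteocytes. Single vehicle libraries moved the fitted values: the log2 fold change of 5.44 in MSCs became 7.19 without vehicle replicate 3, that of 8.21 in osteocytes became 9.47 without vehicle replicate 1, and the difference between them, 2.77 ± 0.89, ran from 1.00 without the first of these to 4.01 without the second.

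Itm2a, on chrX:107397099-107403376 (minus strand), encodes a membrane protein with a BRICHOS domain that is known from cartilage and muscle. Its counts in MSCs were 18, 23 and 5 in vehicle and 45, 43 and 21 in FG-4592. In osteocytes they were 0, 2 and 1 in vehicle and 160, 375 and 317 in FG-4592. The MSC libraries of vehicle and FG-4592 overlapped, vehicle-treated osteocytes were at or under the floor and below every MSC library, and treated osteocytes lay above all others. The ratio with FG-4592 was 2.22 (interval 1.56 to 3.20, counting error only) in MSCs and 279 (interval 95.2 to 1360) in osteocytes, on 3 summed vehicle counts. The fitted difference, 6.83 ± 1.31, ran from 6.20 to 7.70 when single libraries were left out, the extremes being without osteocyte vehicle replicates 1 and 2, and the osteocyte log2 fold change of 7.97 ran from 7.36 to 8.86 without the same libraries. Relative to its mean, Itm2a varied most of the 10 among the treated osteocytes, with 4.61 ± 1.91 CPM (a coefficient of variation of 41.5%), replicate 1 being the lowest.

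Megf6, on chr4:154170730-154275713 (plus strand), encodes a large protein of repeated EGF-like domains. MSC libraries held 15, 12 and 38 counts in vehicle and 48, 50 and 23 in FG-4592. Osteocyte libraries held 13, 14 and 26 in vehicle and 3391, 2945 and 3654 in FG-4592. The first 3 conditions overlapped, and treated osteocytes stood apart at 53.5 ± 6.19 CPM against means of 0.29 to 0.636 CPM in the others. The ratio with FG-4592 was 1.74 (interval 1.28 to 2.39) in MSCs and 185 (interval 142 to 248) in osteocytes. Its vehicle libraries overlapped between the cell states, with a ratio of osteocytes to MSCs of 0.793 (interval 0.541 to 1.16), whose fitted log2 value of -0.33 turned to 0.33 without MSC vehicle replicate 3. Without that library, the log2 fold change in MSCs was 1.46 in place of 0.80 and the difference between the responses 6.05 in place of 6.72.

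Ak4, on chr4:101419277-101466995 (plus strand), encodes an adenylate kinase of the mitochondrial matrix. Its counts in MSCs were 8, 22 and 28 in vehicle and 9874, 10504 and 10131 in FG-4592. In osteocytes they were 54, 15 and 0 in vehicle and 7787, 7627 and 7187 in FG-4592. Ak4 was the only one of the 10 genes that was higher in treated MSCs than in treated osteocytes without overlap, with 160 ± 4.91 and 121 ± 3.21 CPM, while its vehicle libraries overlapped. The rise was 492-fold (interval 381 to 649) in MSCs and 322-fold (interval 254 to 414) in osteocytes. The difference between the responses, -0.61 ± 0.64, changed sign to 0.88 without osteocyte vehicle replicate 1, the library with 54 counts, and was -1.20 without osteocyte vehicle replicate 3. The osteocyte log2 fold change of 8.33 was 9.84 without the first of these libraries.

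C2cd4c, on chr10:79606854-79614025 (minus strand), encodes a protein with a C2 domain whose function is little known. MSC libraries held 7, 11 and 12 counts in vehicle and 16, 14 and 0 in FG-4592. Osteocyte libraries held 1, 1 and 0 in vehicle and 203, 171 and 166 in FG-4592. MSC libraries overlapped between treatments, with a ratio of 0.936 (interval 0.545 to 1.61), while treated osteocytes lay 265-fold above vehicle (interval 73.1 to 2200) on 2 summed vehicle counts. The fitted difference between the responses, 7.89 ± 1.56, ran from 7.30 to 8.46 when single libraries were left out, and with a prior count of 2 it was 6.14, below the 6.63 of Megf6. C2cd4c stayed low where it rose, with 2.89 ± 0.208 CPM in treated osteocytes.

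AU021092, on chr16:5211823-5222299 (minus strand), is annotated as protein coding and has no gene name. MSC libraries held 561, 545 and 531 counts in vehicle and 4229, 5122 and 5038 in FG-4592. Osteocyte libraries held 2256, 2378 and 2687 in vehicle and 20998, 20791 and 19915 in FG-4592. All 4 conditions were separated. It rose 8.23-fold (interval 7.82 to 8.67) in MSCs and 8.29-fold (interval 8.09 to 8.49) in osteocytes, with a difference of 0.01 ± 0.12 on the log2 scale, and it was 4.35-fold (interval 4.12 to 4.59) higher in osteocytes in vehicle and 4.38-fold (interval 4.30 to 4.46) in FG-4592. Its fold change in osteocytes was the smallest of the 10, and in MSCs it lay above those of C2cd4c, Itm2a and Megf6 and below the others. Outside the 10, 160 genes had a larger fitted rise in MSCs and 266 in osteocytes.

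Against all 16484 genes tested, no gene outside the group had a larger fitted rise in MSCs than A2m, Adm2 or Ak4, and the largest outside it was that of the long noncoding RNA Gm16754, with a log2 fold change of 8.40 from 0 to 129 summed counts. In osteocytes, of the genes outside the group, only Gm47593, which went from 0 to 516 summed counts (fitted log2 fold change 10.42), exceeded A2m (9.51) in the main fit. Rnf152 came next (9.49, from 0 to 271 summed counts), and A2m was at 8.94 without osteocyte vehicle replicate 3. In the main fit 53 genes outside the group exceeded Adm2 (5.23). Without the same library, which held all its osteocyte vehicle reads, Adm2 was at 9.88, so this order is not stable. For the difference between the responses, the largest outside the group was that of Dpep2 (7.82), whose summed counts went from 24 to 0 in MSCs and from 41 to 142 in osteocytes. Fitted values of genes with no count in a condition depend on the prior count and are no measured size, and those of genes with few counts there, such as C2cd4c and Itm2a, also move with it. The median log2 fold change of all genes tested was -0.05 in MSCs and 0.00154 in osteocytes. Per length, AU021092 was the most abundant of the 10 in treated osteocytes, at 242 ± 6.22 RPKM (CPM per kilobase of exon), followed by 2610528A11Rik at 93.9 ± 17.5, Ak4 at 26.1 ± 0.691 and Gpr35 at 18.5 ± 0.457 RPKM. Megf6 (6.80 RPKM), A2m (4.17), Itm2a (2.64), Dpp6 (1.61), Adm2 (1.47) and C2cd4c (0.427) followed. In treated MSCs the highest was 2610528A11Rik, at 74.6 ± 3.28 RPKM, ahead of AU021092 at 55.0 ± 2.88 and Ak4 at 34.5 ± 1.06 RPKM.

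**Figure D3:**
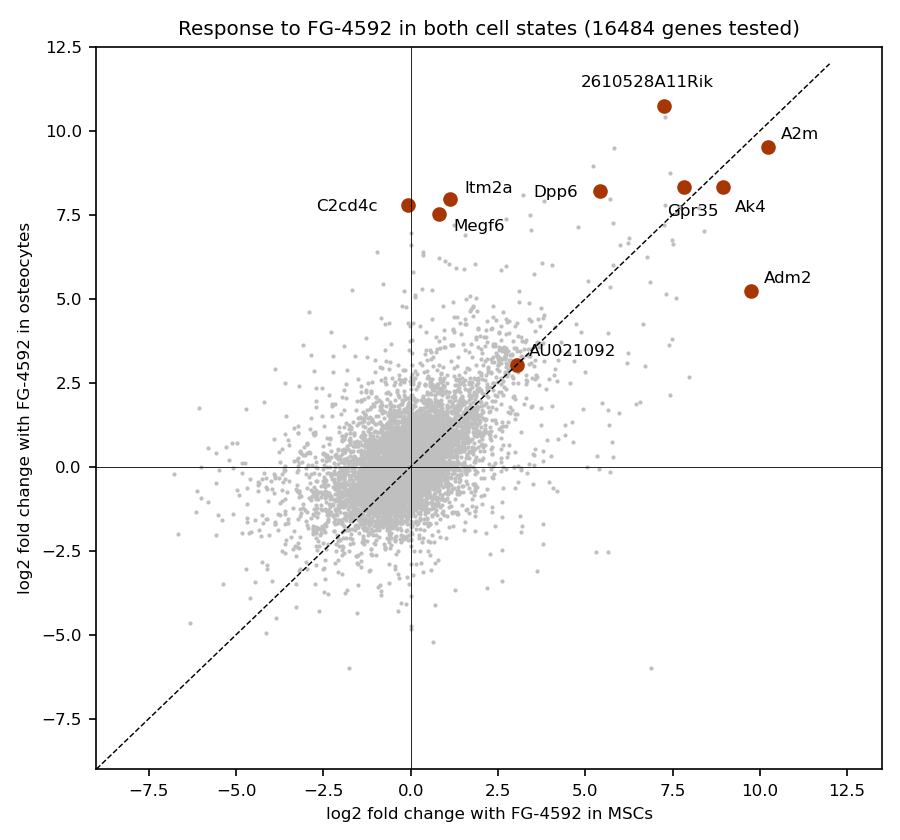
Log2 fold change with FG-4592 in osteocytes (y axis) against that in MSCs (x axis) for the 16484 genes tested, in grey, with the 10 genes in red and equality as a dashed line. C2cd4c, Itm2a and Megf6 lie near 0 to 1.13 on the x axis and between 7.52 and 7.97 on the y axis, Adm2 lies below the line, and AU021092 lies on it. The position of Adm2 rests on osteocyte vehicle replicate 3, without which its difference of -4.53 became 0.13.

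Across the 12 libraries, the levels of the 10 genes (log2 CPM with a prior count of 2) fell into patterns that follow the 4 conditions. A2m was most like Gpr35 (Pearson r 0.991) and Dpp6 (0.988), both higher in treated osteocytes than in treated MSCs. Ak4 was most like 2610528A11Rik (0.969), and C2cd4c was most like Megf6 (0.909) and Itm2a (0.892). The least alike were Adm2 and C2cd4c (0.524). These coefficients describe 12 libraries of 4 conditions that share their vehicle and treated cells.

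Among all other genes, the pattern of A2m was most like those of Sik1 (r 0.9947), Slc39a13 and Klhdc1, and that of AU021092 most like those of Angptl4 (0.9958), Sun1 and Plod3. The levels of Angptl4, a secreted inhibitor of lipoprotein lipase, were 5.90, 57.7, 26.6 and 365 CPM in the order vehicle- and FG-4592-treated MSCs and vehicle- and FG-4592-treated osteocytes. Gpr35 was most like Cavin4 (0.994), Afg3l2 and Spire1, 2610528A11Rik like Dlx3 (0.9937), Gm4691 and Ago2, and Dpp6 like Pygl (0.9942), the liver-type glycogen phosphorylase, followed by Mapk9 and A2m. Adm2 was most like Clybl (0.9854), Ppme1 and 4931440P22Rik, and Ak4 like Oga (0.9867), Smtnl2 and Rnf217. Of the 3 genes whose MSC libraries overlapped between treatments, Megf6 was most like Kansl3 (0.9892), Ppard and Tmem119, Itm2a like Ddit4 (0.9809), Impa2 and Notch4, and C2cd4c, whose best match was the weakest, like Ip6k1 (0.9447), Slc3a1 and Rere. Tmem119, known from bone-forming cells, averaged 96.9 and 928 CPM in vehicle- and FG-4592-treated osteocytes and 81.9 and 127 CPM in the MSCs. A likeness of pattern over 12 libraries was shared by many genes, with 192 genes above 0.95 for A2m and none for C2cd4c.

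A list of 61 related genes (paralogues, receptors, ligand-making enzymes and channel partners of the 10) was read next, since these were not used to choose the group. The table held 60 of them, and 29 passed the filter. The cutoffs of a call were an FDR below 0.05 and a log2 fold change beyond 1 in size. In MSCs 0 of 29 rose and 4 fell past them in edgeR, where 4.12% of all genes rose and 5.17% fell (6 had a positive and 12 a negative change at an unadjusted p under 0.05, and DESeq2 called 0 and 5). In osteocytes 2 were called higher, one of them (Adm) admitted by the filter through the treated osteocytes alone, and 4 lower, 6.90% and 13.8% of the 29, where 6.25% of all genes rose and 4.26% fell. The median log2 fold change of the 29 was -0.21 in MSCs and -0.18 in osteocytes. Of the receptors for the secreted peptides, Gpr15, Calcr, Ramp1 and Ramp3 did not pass the filter. Calcrl, the calcitonin receptor-like receptor, passed it. It averaged 13.2 and 9.97 CPM in vehicle- and FG-4592-treated MSCs and 32.3 and 18.8 CPM in the osteocytes. Its log2 fold changes with FG-4592, -0.40 and -0.78, stayed under the cutoff in size. Lrp1, a receptor of A2m, had condition means of 1220 to 2780 CPM and was not called with FG-4592.

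Adm, the paralogue of Adm2 and itself an angiogenic HIF target, had 1, 0 and 0 counts in vehicle and 37, 16 and 49 in FG-4592 in osteocytes (100-fold, interval 17.6 to 4000, counting error only). In MSCs it had 0, 3 and 0 counts in vehicle and 0, 6 and 0 in FG-4592. The fitted osteocyte log2 fold change, 6.21, became 8.07 without osteocyte vehicle replicate 1, which held the only vehicle count. It passed the filter on low counts only through the 3 treated osteocyte libraries, so its call had to favour them and no p is given for it. It could not be fitted when any of these libraries was left out. Its MSC counts lay in a single library of each treatment, and the fitted difference between the responses, 5.40, became 9.41 without MSC FG-4592 replicate 2 and 2.17 without MSC vehicle replicate 2. Cd109, a protease inhibitor of the A2m family anchored at the cell surface, rose in osteocytes by 1.29 ± 0.07 on the log2 scale (adjusted p = 3.25e-10, edgeR), from 164 ± 15.5 to 401 ± 36.4 CPM, and went from 253 ± 8.71 to 410 ± 3.57 CPM in MSCs, a log2 fold change of 0.70 that stayed under the cutoff.

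Ramp2, which makes the calcitonin receptor-like receptor respond to adrenomedullins, fell by 2.37 ± 0.41 on the log2 scale in MSCs (adjusted p = 8.66e-05, edgeR) and by 1.37 ± 0.21 in osteocytes (adjusted p = 6.35e-05, edgeR). Its counts in MSCs were 35, 39 and 53 in vehicle and 7, 17 and 2 in FG-4592, and in osteocytes 760, 685 and 737 in vehicle and 312, 236 and 314 in FG-4592. Its level was thus lower with FG-4592 in the same libraries in which Adm2 was higher. Its MSC log2 fold change became -3.25 when MSC FG-4592 replicate 2 was left out. The response difference of Ramp2 had an adjusted p of 0.114 and passed at 0.00803 without that library. Ak5, a cytosolic adenylate kinase, fell in both cell states, by 1.99 ± 0.12 in MSCs and by 1.14 ± 0.09 in osteocytes (largest adjusted p 4.81e-08, edgeR), where Ak4 was higher. Kyat3, an aminotransferase that makes kynurenic acid, fell in MSCs from 3.24 ± 0.198 to 1.29 ± 0.261 CPM (adjusted p = 0.000218, edgeR) and had a log2 fold change of -0.36 ± 0.22 in osteocytes (adjusted p = 0.202, edgeR). Its response difference, 0.97, was under the cutoff and passed, with 1.14, 1.03 and 1.17, when MSC FG-4592 replicate 3, osteocyte vehicle replicate 3 or osteocyte FG-4592 replicate 3 was left out.

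Fap, a serine protease of the family of Dpp6 that is known from activated fibroblasts, fell in osteocytes from 40.6 ± 1.63 to 16.1 ± 0.98 CPM (adjusted p = 1.25e-07, edgeR). In MSCs it had 17 summed counts in vehicle and 2 in FG-4592 (adjusted p = 0.00702, edgeR), a call that was lost without vehicle replicate 2 (adjusted p = 0.0518, edgeR) and with only the 6 MSC libraries in the fit (0.0914). Both FG-4592 counts were in replicate 1, so that without it Fap had no read in treated MSCs. Its response difference was not called (adjusted p = 0.176, edgeR) and passed at 0.0351 without MSC FG-4592 replicate 1. Megf10, a phagocytic receptor with EGF-like repeats, fell in osteocytes from 234 ± 17.3 to 112 ± 8.64 CPM, a log2 fold change of -1.06 ± 0.07 (adjusted p = 2.12e-09, edgeR) that lay at -0.9996, just short of the cutoff, without FG-4592 replicate 3. In MSCs Megf10 was at 48.3 ± 2.40 and 55.3 ± 2.83 CPM, and the responses differed by -1.25 ± 0.09 (adjusted p = 1.3e-07, edgeR), the reverse of the direction of Megf6. Megf10 was the only one of the 29 whose response difference passed, against 3.94% of all genes higher and 1.07% lower. With 0 of 29 higher, 8 were so at an unadjusted p under 0.05 and DESeq2 called 0. Between the cell states, 10 of the 29 were higher and 1 lower in osteocytes in vehicle, against 9.83% and 6.08% of all genes, and 10 were higher and 2 lower in FG-4592, against 12.6% and 5.64%.

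The genes within 100 kb of the 10 were also read, as they were not used in the choice. Of the 39 that passed the filter, 3 rose and 1 fell in MSCs, and 9 rose and 0 fell in osteocytes (7.69% and 23.1% rose, where 4.12% and 6.25% of all genes did, and 2.56% and 0 fell, where 5.17% and 4.26% did). Of the 9, Mir6364 was admitted by the filter through the treated osteocytes alone. At an unadjusted p under 0.05, 21 were higher and 0 lower in osteocytes, and DESeq2 called 9 and 0. The response difference was higher in osteocytes for 6 of 39 and lower for 0 in edgeR and DESeq2 alike (13 and 3 at an unadjusted p under 0.05), 15.4% higher where 3.94% of all genes were higher and 1.07% lower. The neighbours of C2cd4c held 4 of the 9 rises in osteocytes, those of Ak4 and AU021092 held 2 each, and that of 2610528A11Rik held 1. None of the 7 tested neighbours of Adm2 or the 8 of Gpr35 was called in either cell state, and A2m and Itm2a had no tested neighbour. Genes close to each other are not independent of each other, and no test over the list was made.

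Around C2cd4c, Shc2, a signalling adaptor that lies 4026 bases away on the same strand, went from 21.4 ± 1.39 to 81.3 ± 2.45 CPM in osteocytes (log2 fold change 1.93 ± 0.07, adjusted p = 1.91e-12, edgeR) and from 41.9 ± 3.22 to 63.1 ± 3.57 CPM in MSCs, where its log2 fold change of 0.59 was under the cutoff. Odf3l2, 25501 bases away, had 0, 2 and 0 counts in vehicle-treated osteocytes and 97, 115 and 76 in FG-4592-treated ones (142-fold, interval 38.8 to 1170, adjusted p = 3.15e-07, edgeR), both vehicle counts being in replicate 2. In MSCs its counts were 49, 22 and 26 in vehicle and 101, 109 and 101 in FG-4592 (log2 fold change 1.56 ± 0.39, adjusted p = 0.00493, edgeR). In vehicle, the osteocyte libraries of Odf3l2 lay below those of MSCs without overlap. The long noncoding RNA Gm47163, 23831 bases away on the opposite strand, had 19, 19 and 13 counts in vehicle and 95, 122 and 107 in FG-4592 in osteocytes (adjusted p = 1.65e-05, edgeR), and 44, 38 and 28 against 36, 76 and 61 in MSCs (adjusted p = 0.244, edgeR).

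Bsg, or basigin, the chaperone that carries lactate transporters to the cell surface, lies 90466 bases from C2cd4c. It rose in MSCs from 357 ± 10.4 to 1910 ± 50.8 CPM and in osteocytes from 366 ± 29.2 to 4630 ± 386 CPM, log2 fold changes of 2.42 ± 0.06 and 3.66 ± 0.06 (largest adjusted p 7.59e-14, edgeR). Shc2, Bsg, Odf3l2 and Gm47163 all responded more in osteocytes than in MSCs, with differences of 1.34 ± 0.10, 1.24 ± 0.09, 5.33 ± 1.19 and 2.11 ± 0.49 and adjusted p-values of 7.53e-08, 6.8e-08, 0.000223 and 0.00487 (edgeR). Bsg and Odf3l2 rose in MSCs too.

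Cdhr1, a cadherin of photoreceptors that lies 3793 bases from 2610528A11Rik on the same strand, rose in MSCs from 6.57 ± 0.99 to 21.1 ± 0.382 CPM and in osteocytes from 16.8 ± 1.46 to 77.9 ± 8.06 CPM (log2 fold changes 1.68 ± 0.11 and 2.21 ± 0.10, largest adjusted p 3e-09, edgeR). Near AU021092, the desmosomal linker Ppl rose in osteocytes from 102, 84 and 46 to 504, 291 and 305 counts (2.21 ± 0.23, adjusted p = 8.68e-07, edgeR), with a response difference of 1.40 ± 0.30 (adjusted p = 0.00294, edgeR). Mir6364 lies inside AU021092 on the same strand and had 1, 3 and 1 counts in vehicle and 14, 14 and 21 in FG-4592 in osteocytes (9.63-fold, interval 3.86 to 31.0, counting error only), and at most 3 in any MSC library. The fitted osteocyte log2 fold change of Mir6364, 3.16, became 3.90 without osteocyte vehicle replicate 2. It passed the filter only through the 3 treated osteocyte libraries, so no p is given for it. It could not be fitted when any of them was left out, and its call was lost without a filter on low counts. The counts do not tell a mature microRNA from reads of the host transcript.

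Near Ak4, the long noncoding RNA E130102H24Rik had a log2 fold change of 1.03 ± 0.19 in osteocytes (adjusted p = 0.000351, edgeR), at the cutoff: it was 0.93 with library size alone and without vehicle replicate 1, and 0.98 without FG-4592 replicate 1. In MSCs it was 0.79, and 1.04 without vehicle replicate 1. Gm12796 had 12, 1 and 0 counts in vehicle and 15, 27 and 16 in FG-4592 in osteocytes (adjusted p = 0.0383, edgeR), which no longer passed without osteocyte vehicle replicates 2 or 3 (0.121 and 0.0946) or FG-4592 replicates 2 or 3 (0.117 and 0.0541). Its log2 fold change, 2.15, became 4.87 and its response difference, 0.92, became 3.61 without osteocyte vehicle replicate 1 (adjusted p = 0.0306, edgeR). Prdm16, a regulator of brown fat 40412 bases from Megf6, fell in MSCs by 2.03 ± 0.51 (adjusted p = 0.00436, edgeR), from 44, 72 and 62 to 16, 19 and 11 counts, and in osteocytes had 25, 122 and 82 counts in vehicle and 97, 67 and 71 in FG-4592. Its response difference, 1.99 ± 0.68, passed at an adjusted p of 0.0421 (edgeR) that rose to between 0.0512 and 0.1 when any single library other than osteocyte vehicle replicates 1 and 2 was left out. Between the cell states, 2 of the 39 neighbours were higher and 5 lower in osteocytes in vehicle, and 4 were higher and 1 lower in FG-4592. These are 5.13% and 12.8% in vehicle, where 9.83% and 6.08% of all genes were, and 10.3% and 2.56% in FG-4592, where 12.6% and 5.64% were.

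**Figure D4:**
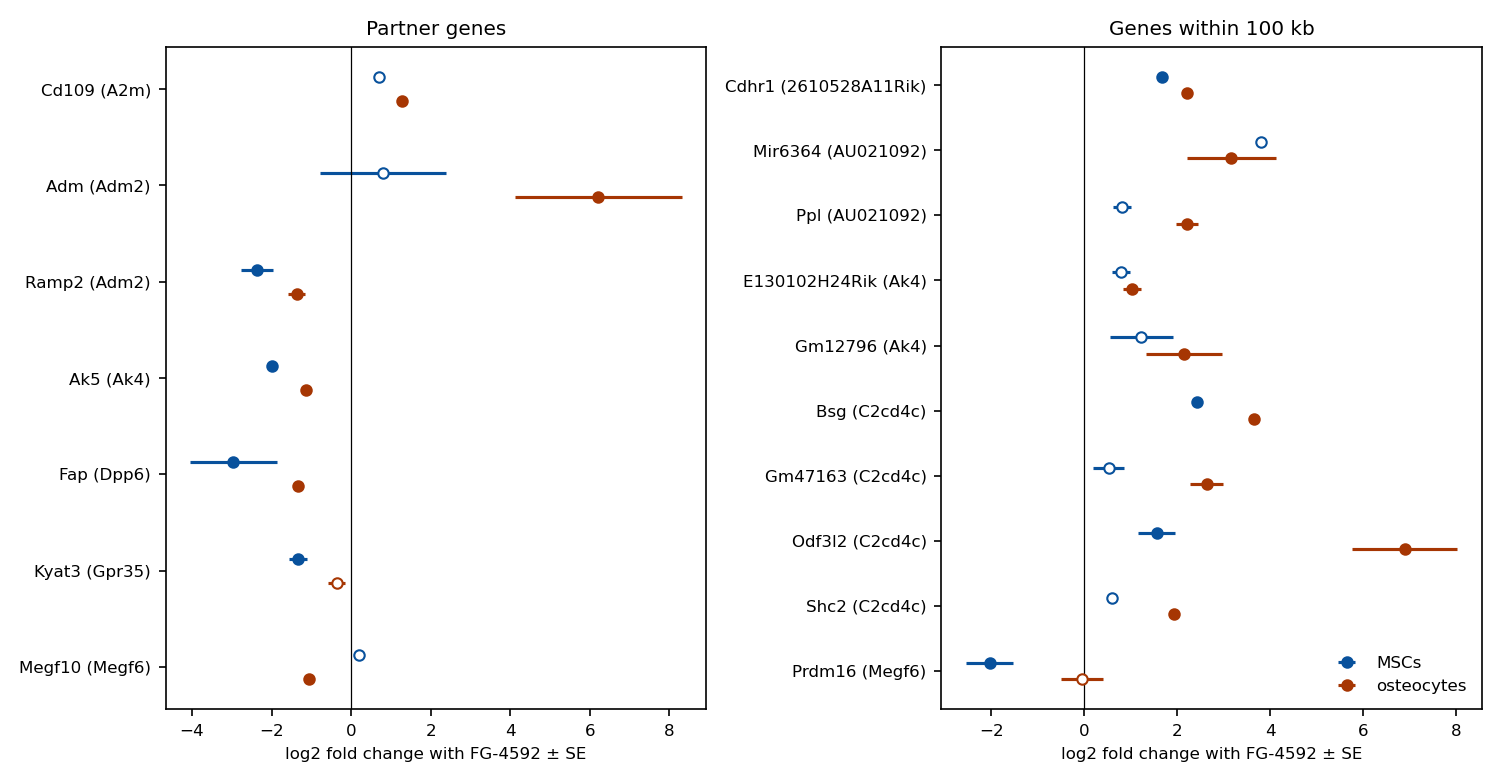
Log2 fold change with FG-4592 (x axis, ± SE where one could be computed) of the 7 related genes (left) and 10 genes within 100 kb (right) that passed the cutoffs in a response or in the difference of responses, with the gene of the group in parentheses. Blue is MSCs, red is osteocytes, and filled points passed the cutoffs. Ramp2, Ak5 and Fap lie below 0 in both cell states, while Cdhr1, Bsg and Odf3l2 lie above 0 in both.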

How the data were processed

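RNAseq was measured in 12 libraries, 3 from each of 4 conditions. Per the labels and the methods, the authors mapped reads to mm10 with STAR 2.7.2a and assigned them to Gencode genes with featureCounts (Subread 1.6.2), counting a read pair for every gene that it overlaps and without strand. The deposited values were counts per gene, not normalized. From these, edgeR 4.0.16 (R 4.3.3) was fitted to all 12 libraries for the 16484 of 56350 genes that exceeded 10 counts in 3 or more libraries, with TMM normalization and its quasi-likelihood test. A call needed a Benjamini-Hochberg FDR below 0.05 and a log2 fold change beyond 1 in size. The fit was also run on simulated counts, with changes smaller than the osteocyte rises of the 10 genes. This does not cover rises from 0 or few counts. The 10 genes and the lists were chosen with earlier results of these data known.

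All 10 genes were named, with the genes that passed among 61 related genes and among those within 100 kb (up to 12 a list), the 3 of highest Pearson r to each, the largest rise of another gene per comparison, and 5 treatment check genes. Tmem119 and Angptl4 came under the rule on likeness. Receptors among the related genes were named whether or not they passed. Intervals of ratios were 95% exact binomial, and with a floor of 3 counts they cover counting error only. RPKM was computed from CPM and exonic length. Promoters came from RefSeq (GRCm38.p6), and near-identical stretches were found with BLAST+ 2.17.0 in Gencode M21 transcripts. DESeq2 1.42.0, RLE factors, library size alone, other filters, fits of the 6 libraries of a comparison, a replicate block and each library left out were alternatives. No 2 libraries held identical counts. Figures were drawn in matplotlib 3.10.9.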

Additional observations from a re-analysis of the deposited data

Results flagged for a closer look

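The responses to FG-4592 differed between osteocytes and MSCs, by the interaction contrast of edgeR's quasi-likelihood test, for 7 of the related and neighbouring genes. The differences, osteocytes minus MSCs on the log2 scale, were -1.25 for Megf10 (adjusted p = 1.3e-07), 1.40 for Ppl (0.00294), 1.34 for Shc2 (7.53e-08), 1.24 for Bsg (6.8e-08), 5.33 for Odf3l2 (0.000223), 2.11 for Gm47163 (0.00487) and 1.99 for Prdm16 (0.0421). All but that of Prdm16 passed under each of the 18 alternatives, with adjusted p-values of at most 0.0185 (edgeR or DESeq2). Shc2, Bsg, Odf3l2 and Gm47163 lie within 100 kb of C2cd4c and of each other. For Odf3l2 the osteocyte vehicle libraries held 2 counts in all, both in replicate 2, and the fitted difference was 7.99 without that library. Groups of 3 libraries were not searched for outlying libraries, and the differences of the 10 genes themselves were not tested, since the genes were chosen for them.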

How the results depend on the processing

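The number of genes called in each of the 5 comparisons stayed within 1.5 times under every alternative run, and so did the counts of related and neighbouring genes, apart from these. Without a filter on low counts, 5 related genes differed in response in place of 1, and with single libraries left out 1 to 3 did. Neighbours that differed between the cell states in vehicle numbered 4 to 7 in place of 7 with single libraries left out. With neighbours within 50 kb (28 genes, an alternative chosen after seeing the data), 5 were called in osteocytes in place of 9, 4 between cell states in vehicle in place of 7, and 3 in FG-4592 in place of 5. Within 200 kb (72 genes, likewise) these were 14, 10 and 9, and 9 in place of 4 were called in MSCs. The neighbour counts thus scale with the genes included. Same-numbered libraries did not deviate together (r from -0.0528 to 0.0543 over 12 pairs, 3 of 12 best with their own number). With the replicate number as a block, 1444 genes in MSCs and 1678 in osteocytes were called in place of 1532 and 1732, 772 in place of 826 for the response difference, 2533 and 2957 between the cell states, and 4, 6 and 1 related and 4, 8 and 6 neighbouring genes in the first 3 of these comparisons. The block changed the call of 1 gene named here, Gm12796 in osteocytes (adjusted p = 0.0552, edgeR), as did a fit of the 6 osteocyte libraries (0.0981). Of 610 alternative values of the 10 genes, 556 moved by less than the spread between libraries and 54 by more. A prior count of 2 moved log2 fold changes of low-count genes by over 1.5-fold. In MSCs it gave 6.26 for A2m, 5.78 for Adm2, 7.03 for Gpr35 and 4.57 for Dpp6, in place of 10.24, 9.75, 7.82 and 5.44. In osteocytes it gave 8.70 for A2m, 4.58 for Adm2, 10.00 for 2610528A11Rik, 6.07 for C2cd4c and 6.57 for Itm2a, in place of 9.51, 5.23, 10.74, 7.80 and 7.97. For the response difference it gave 2.44 for A2m, -1.20 for Adm2, 2.86 for 2610528A11Rik, 1.15 for Gpr35, 6.14 for C2cd4c and 5.52 for Itm2a, in place of -0.73, -4.53, 3.49, 0.50, 7.89 and 6.83. The vehicle ratios of Gpr35 and 2610528A11Rik became 2.11 and -2.52 in place of 2.76 and -3.16. Of 30 genes most like the group, 3 remained with Spearman's rho and 18 with a prior count of 0.5. Depth limited the vehicle levels, where no library held more than 54 counts of any of the 10 genes except AU021092.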
